A study of Mus musculus with 30 samples.

Results

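The synthesis of cholesterol and fatty acids and its control were followed through 35 genes, taken by symbol from the 25611 gene rows of the count table. All 35 were found, and all were among the 14808 genes that passed the filter on low counts. They comprised 7 regulators, 7 enzymes of the early mevalonate steps, 11 enzymes of the squalene and sterol steps, 6 enzymes of fatty acid synthesis and 4 genes of sterol handling. The cells were dendritic cells, obtained by culturing mouse bone marrow with the growth factor FLT3L at 200 ng/ml over 6 to 7 days. They were wild type (WT) or Rubcn knockout (KO); Rubcn encodes Rubicon, a protein needed for LC3-associated phagocytosis, in which the autophagy protein LC3 is attached to the membrane around engulfed material. Cells of each genotype were left untreated, exposed to the protein ovalbumin (OVA) or exposed to dying (apoptotic) Jurkat cells, and both exposures lasted either 30 min or 4 h. Jurkat is a line of human leukaemic T cells. The 10 groups had 3 libraries apiece, 30 in all. The labels give no exon or method for the knockout, no dose of OVA or Jurkat cells, no time for the untreated cells, and do not say whether libraries of a group came from separate mice, so the tests measure the spread between these libraries, which may be technical.

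The transcription factors SREBP1 and SREBP2, encoded by Srebf1 and Srebf2, are made as membrane proteins of the endoplasmic reticulum. When sterols are scarce the escort protein SCAP carries them to the Golgi, where they are cut and released to the nucleus, and when sterols are plentiful INSIG proteins hold SCAP back; their targets include most enzymes of sterol and fatty acid synthesis and Insig1 itself. Liver X receptors, encoded by Nr1h2 and Nr1h3, are instead activated by oxysterols and induce genes of cholesterol export, Mylip and Srebf1. In phagocytes such as macrophages and dendritic cells, engulfed cells are a source of cholesterol, and Ch25h makes an oxysterol that restrains SREBP processing.

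Total counts per library ran from 9734778 to 51642601, and the shallowest was the KO library 3 of 30 min OVA. Dendritic cell markers were present throughout, with Flt3 between 228 and 582 CPM (counts scaled by the effective library size) and Itgax between 316 and 533 CPM. Their changes with 4 h of Jurkat cells are given below. The targeted gene Rubcn had less mRNA in KO cells in every condition, at a mean of 72.8 against 98.9 CPM in untreated cells (log2 fold change -0.44). A list of 20 T-lineage genes, of which 19 were tested, was followed as a measure of Jurkat material: its summed level was 88.4 to 93.8 CPM in untreated WT, 125 to 131 CPM in WT at 30 min and 155 to 188 CPM in WT at 4 h of Jurkat cells, and 97.8 to 105 CPM, 111 to 119 CPM and 131 to 153 CPM in the same KO groups. In the Jurkat groups no list member was at 0 in all 3 libraries. Reads of the human cells may have been counted on mouse genes, the members included, and the part of this in the Jurkat results was not tested. The count table cannot tell a change in the makeup of a culture from a change in RNA per cell. The KO library 2 of 4 h Jurkat cells stood apart: the chi-square of its counts over genes, divided by the degrees of freedom, was 124 and 129 against the other libraries of its group, beside 4.82 between those and 2.22 to 16.03 within the other groups. It enters every 4 h Jurkat value in KO. Without it the KO response still had 20 members higher and 9 lower, KO against WT at that time 5 higher and 1 lower, and Jurkat against OVA 21 higher and 7 lower, while the difference between the genotypes' responses fell from 8 members to 3. TMM scaling factors were 0.765 to 0.842 in the 4 h Jurkat libraries and 1.03 to 1.07 in all others, so levels in the 4 h Jurkat groups depend most on the scaling.

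Because SREBPs act together with the factors NF-Y and Sp1 at their targets, the sequence around the start sites is shown for 4 enzymes of the pathway whose mRNA rose with Jurkat cells, each described below. RefSeq promoter sequences (GRCm38.p6, 250 bases before to 50 after each start) matched 29 of the 35 members, all but Fdps, Fdft1, Sqle, Scd1, Scd2 and Stard4. The bases upstream of the start site are shown 5′ to 3′ on the gene's strand, with matches to 3 motifs in capitals: the sterol regulatory element TCACNCCAC, the E-box CACGTG and the NF-Y box CCAAT, each on either strand, so that ATTGG is the NF-Y box read on the other strand. Hmgcs1 lies at chr13:119690171-119690350 (+ strand), Hsd17b7 at chr1:169969206-169969385 (- strand), Idi1 at chr13:8885426-8885605 (+ strand) and Msmo1 at chr8:64733579-64733758 (- strand).
Hmgcs1: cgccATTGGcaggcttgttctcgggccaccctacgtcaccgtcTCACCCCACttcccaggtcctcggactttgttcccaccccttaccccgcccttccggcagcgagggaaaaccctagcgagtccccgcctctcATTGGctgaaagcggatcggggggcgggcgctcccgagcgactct
Hsd17b7: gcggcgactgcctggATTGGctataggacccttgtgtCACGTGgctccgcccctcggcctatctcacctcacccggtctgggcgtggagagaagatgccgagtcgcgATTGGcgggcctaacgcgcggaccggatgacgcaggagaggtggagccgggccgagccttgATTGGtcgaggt
Idi1: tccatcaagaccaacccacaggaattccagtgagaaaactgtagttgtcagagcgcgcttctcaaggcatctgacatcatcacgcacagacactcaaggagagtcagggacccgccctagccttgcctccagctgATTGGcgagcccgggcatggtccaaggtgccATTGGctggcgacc
Msmo1: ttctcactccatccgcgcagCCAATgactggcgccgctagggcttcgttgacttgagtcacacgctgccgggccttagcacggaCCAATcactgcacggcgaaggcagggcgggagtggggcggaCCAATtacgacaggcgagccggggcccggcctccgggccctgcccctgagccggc
These windows hold 2 NF-Y boxes in Hmgcs1, 3 in Hsd17b7, 2 in Idi1 and 3 in Msmo1. Of the 29 members the sterol regulatory element was matched in Hmgcs1 alone, at position -137 relative to the start site, and it was found in 1.44% of the promoters of 27025 genes. The NF-Y box was present in 22 of the 29 members with a promoter (75.9%), against 41.1% of all genes and 42.4% of tested genes. The Sp1 box GGGCGG was also present in 22 of 29 (75.9%), against 38.2% of all and 65.7% of tested genes, and the E-box in 5 of 29 (17.2%), against 8.09% and 11.3%. The E-box reads the same on both strands and was counted once, and no matches of different motifs overlap in the windows shown. Among members higher in WT after 4 h of Jurkat cells the NF-Y box was present in 13 of 16, and among the other members in 9 of 13. A match describes the letters only and was not tested as a binding site, and variants of the motifs were not searched.

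After 4 h of apoptotic Jurkat cells most genes of the whole table were called, and the members' share was near that background, 29 of 35 in each genotype beside 79.5% of all genes in WT and 78.5% in KO. In WT cells 20 of the 35 genes rose and 9 fell against untreated cells, where 38.9% of all tested genes rose and 40.6% fell. In KO cells again 20 rose and 9 fell, against 37.5% and 41.0% of all genes. The median log2 fold change of the members was 0.58 in WT and 0.34 in KO, beside -0.02 and -0.03 over all genes. A call is a Benjamini-Hochberg adjusted p (FDR) under 0.05 over the 14808 genes in edgeR's quasi-likelihood test, and the treatments of a genotype share its 3 untreated libraries. With scaling to total counts in place of TMM the all-gene median became -0.42 in WT and -0.37 in KO. The members' calls were then 18 higher and 15 lower in WT and 16 higher and 17 lower in KO. The T-lineage sums given above rose with the same treatment, with 17 of 19 tested list genes called higher and 2 lower in WT and 14 higher and 3 lower in KO, and 5 of 6 stromal genes in WT and 6 of 6 in KO were higher too. Markers of type 2 conventional dendritic cells were lower, 4 of 4 in WT and 3 of 4 in KO, with sums of 1027 to 1051 CPM in untreated WT and 598 to 623 CPM after 4 h, and 1066 to 1105 CPM and 663 to 713 CPM in KO. Of 6 macrophage or monocyte markers 4 were higher and 1 lower in each genotype, and of 5 plasmacytoid markers 3 were higher and 2 lower. Of 7 dendritic cell markers 4 were higher and 3 lower in each genotype. Their sums were 21781 to 24636 CPM in untreated WT and 38013 to 40060 CPM after 4 h, and 22290 to 24280 CPM and 35678 to 37953 CPM in KO. Of 5 type 1 conventional markers 2 were higher and 2 lower in WT, and 2 higher and 3 lower in KO. The part of these markers in the members' results was not tested.

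**Figure D1:**
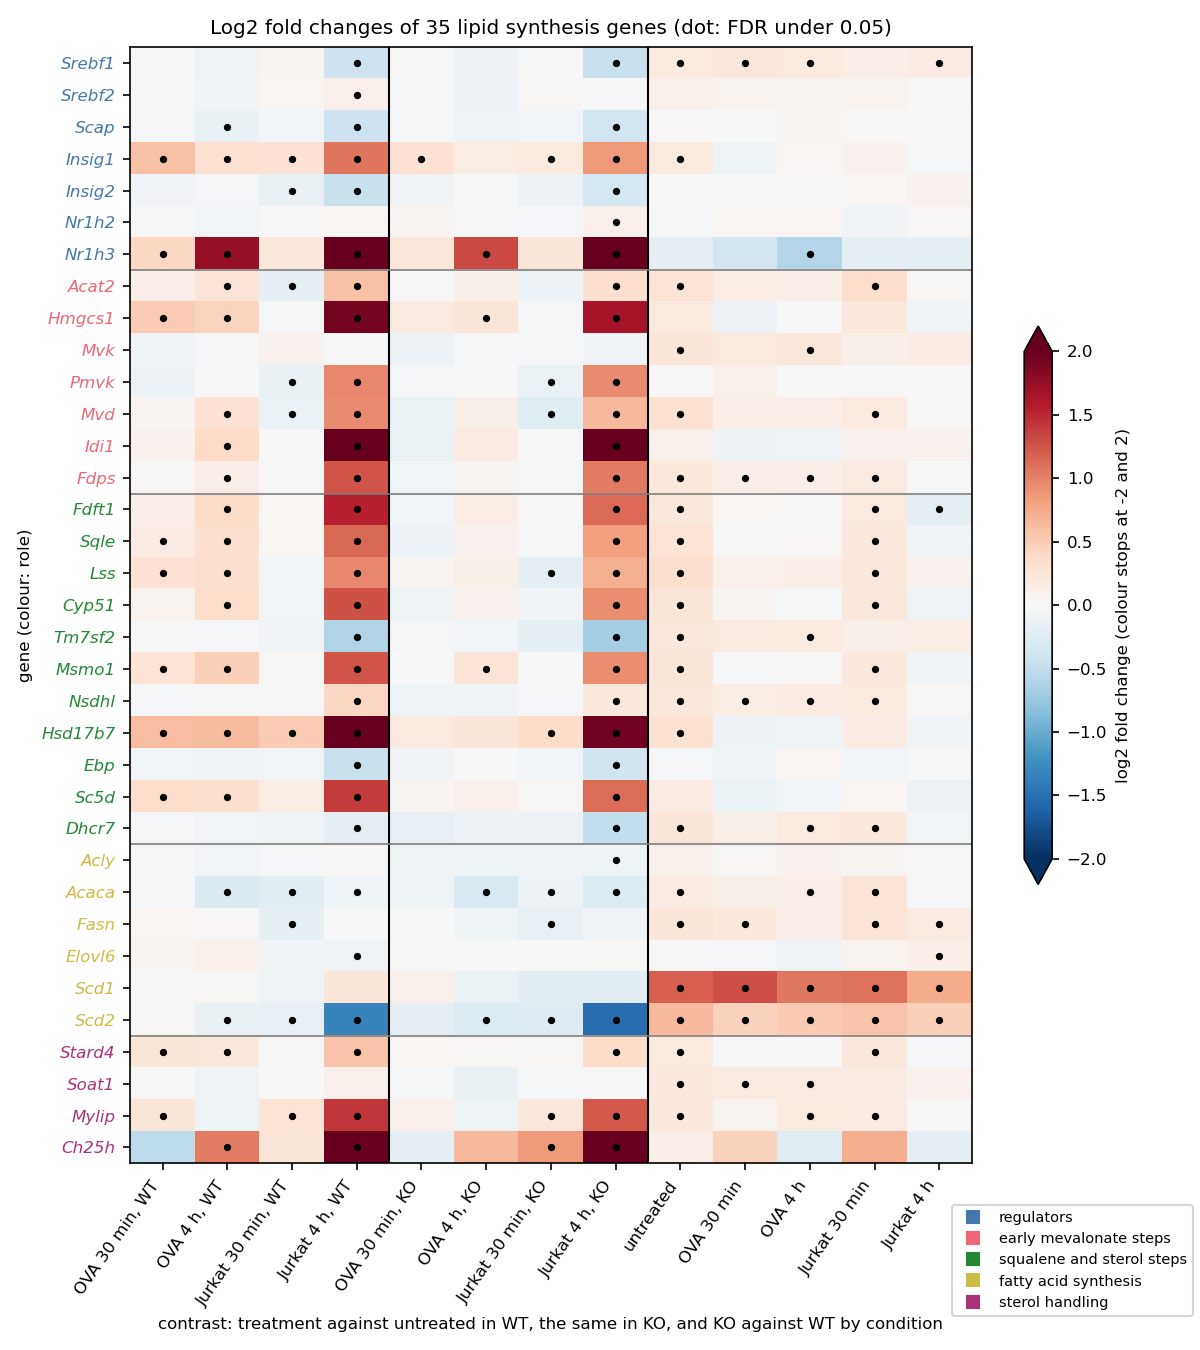
Log2 fold changes (colour, limited to -2 and 2) of the 35 genes in rows, grouped by role, for each treatment against untreated cells in WT, the same in KO, and KO against WT in each condition; a dot marks FDR under 0.05 in edgeR. The 4 h Jurkat columns hold the deepest reds, in Ch25h, Nr1h3, Hsd17b7, Idi1 and Hmgcs1, and the deepest blue, in Scd2, while Scd1 and Scd2 are red in all 5 KO against WT columns.

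Of the 7 early mevalonate genes, 6 rose after 4 h of Jurkat cells in both genotypes, and Mvk, mevalonate kinase, was not called in either (0.01 in WT and -0.07 in KO). Hmgcs1 (Entrez 208715, mm10 chr13:119690351-119708260), the synthase that makes HMG-CoA for the pathway, was at 193, 171 and 170.1 CPM in the 3 untreated WT libraries and at 634, 746 and 639 CPM after 4 h of Jurkat cells, a log2 fold change of 1.92 (SE 0.0729, edgeR FDR 4.41e-20). In KO it went from 222, 203 and 189 CPM to 631, 618 and 675 CPM, a log2 fold change of 1.65 (SE 0.0722, edgeR FDR 1.54e-18). The untreated and 4 h Jurkat libraries were far apart in both genotypes, with no overlap.

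Idi1 (chr13:8885606-8892396), the isomerase that interconverts the isoprenoid building blocks, stood at 21.5, 17.7 and 17.5 CPM in untreated WT and at 71.9, 92.1 and 79.5 CPM at 4 h. Its KO libraries went from 22.7, 18.9 and 19.0 CPM to 79.7, 84.2 and 93.3 CPM. The log2 fold changes were 2.10 in WT (SE 0.106) and 2.09 in KO (SE 0.104), with edgeR FDRs of 3.87e-17 and 3.84e-17, so this member rose by nearly equal amounts in both genotypes. Fdps, farnesyl diphosphate synthase, rose by 1.26 and 1.04 on the log2 scale in WT and KO. Pmvk and Mvd, which act between mevalonate and isopentenyl diphosphate, rose by 0.97 and 0.95 in WT and by 0.95 and 0.65 in KO. Acat2, the thiolase that makes acetoacetyl-CoA, rose least of the 6, by 0.58 in WT and 0.34 in KO, and its KO value was -0.0036 with scaling to total counts.

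Of the 11 squalene and sterol genes, 8 rose and 3 fell at 4 h of Jurkat cells in each genotype. Fdft1 (chr14:63145151-63179578), squalene synthase and the first enzyme committed to sterols, was at 43.6, 44.8 and 46.2 CPM in untreated WT and at 128, 139 and 129.8 CPM at 4 h (log2 fold change 1.56, SE 0.053, edgeR FDR 2.92e-21). In KO it went from 55.5, 54.2 and 47.7 CPM to 118, 112 and 116 CPM (log2 fold change 1.14, SE 0.0523, edgeR FDR 5.09e-18). KO libraries were thus above WT before treatment and below WT after it, without overlap either time. Fdft1 shares 773 bases with Ctsb, a cathepsin gene on the opposite strand at up to 3584 CPM, and the library kit does not mark strand, so its count is uncertain. Ctsb itself changed by 0.42 in WT and 0.24 in KO.

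Hsd17b7 (chr1:169949537-169969205), a ketosteroid reductase of the sterol pathway, was at 16.4, 15.9 and 15.8 CPM in untreated WT and at 76.9, 87.9 and 74.1 CPM at 4 h. In KO the values were 21.4, 19.9 and 18.2 CPM and then 78.7, 70.9 and 79.0 CPM. Its log2 fold changes of 2.31 (SE 0.0799) and 1.94 (SE 0.0778), with edgeR FDRs of 4.54e-21 and 1.75e-19, were the highest among the enzymes of this group. Sc5d, Cyp51, Msmo1 and Sqle, which are respectively a desaturase, a demethylase, a methyl oxidase and the squalene epoxidase of the pathway, rose by 1.40, 1.27, 1.25 and 1.15 in WT. In KO their log2 rises were 1.12, 0.93, 0.93 and 0.82. Lss, lanosterol synthase, rose by 0.96 and 0.71, and Nsdhl, a dehydrogenase of the demethylation step, by 0.42 and 0.21. The call of Nsdhl depended on the scaling, since total counts gave 0.01 in WT and -0.13 in KO.

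The 3 sterol genes that fell were Tm7sf2, Ebp and Dhcr7. Tm7sf2, a sterol reductase whose reaction the lamin B receptor Lbr can also carry out, went from 11.4 to 12.3 CPM down to 7.74 to 7.90 CPM in WT and from 13.4 to 14.2 CPM down to 8.46 to 8.92 CPM in KO, log2 fold changes of -0.60 and -0.68. Ebp, the sterol isomerase, changed by -0.45 and -0.41. Dhcr7, the last reductase on the way to cholesterol, changed by -0.20 in WT, where the groups overlapped, and by -0.50 in KO, where they did not. These 3 genes thus moved against the other 8 of the squalene and sterol group.

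**Figure D2:**
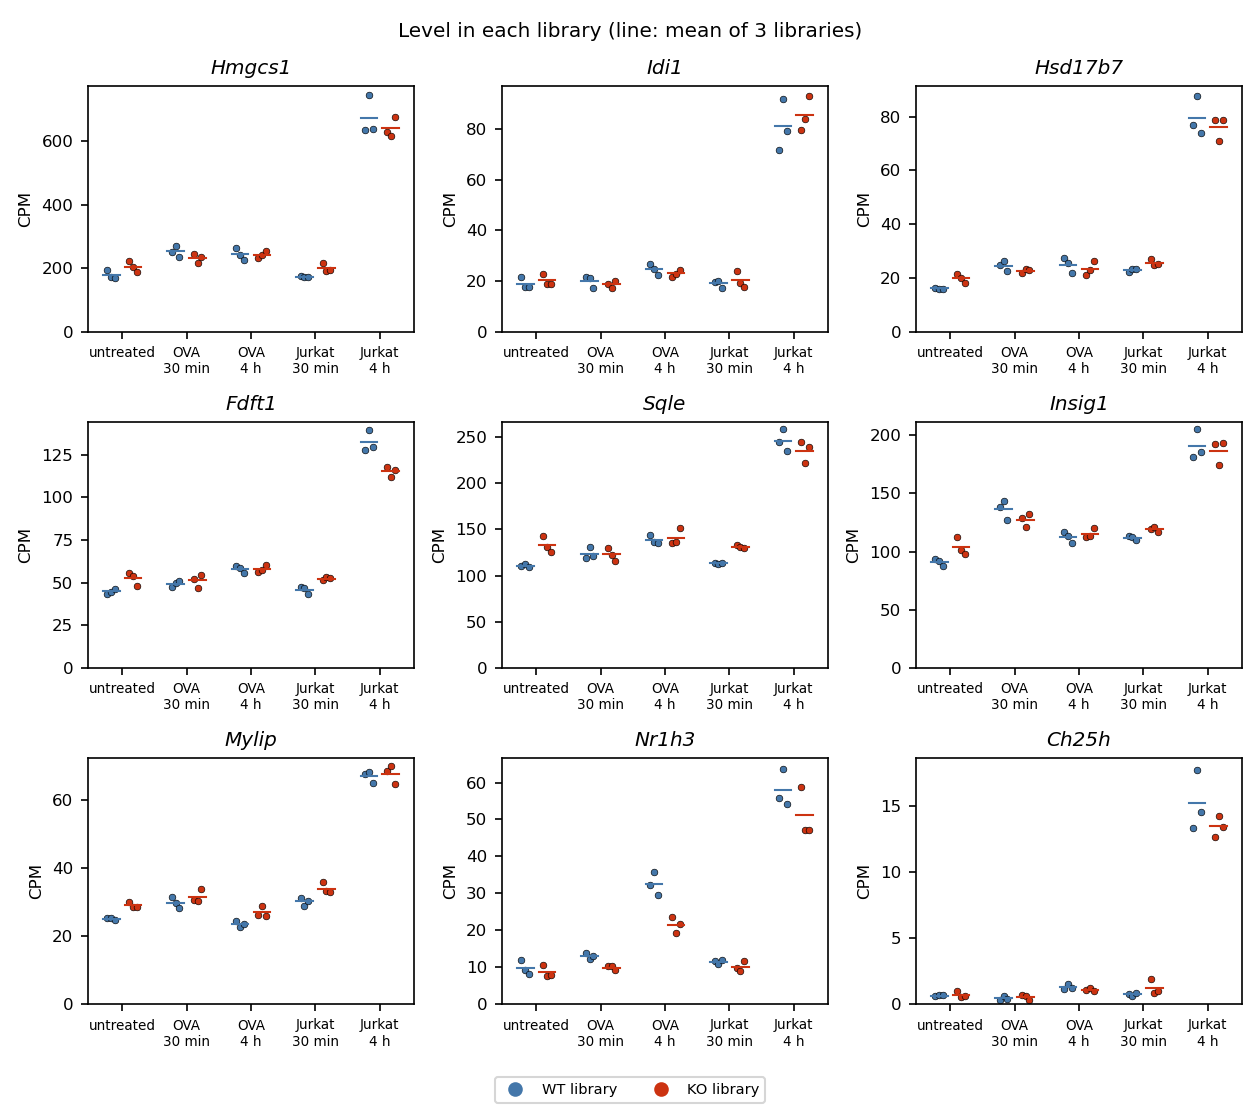
CPM (vertical axis, from 0) in each library for 9 members across the 5 conditions, WT in blue and KO in red, with a line at the mean of 3 libraries. In all 9 panels the 4 h Jurkat libraries lie above every other library of the same gene, and Nr1h3 also rises after 4 h of OVA, to 29.5 to 35.7 CPM in WT and 19.2 to 23.7 CPM in KO.

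The regulators moved less evenly. Insig1 (chr5:28071412-28078662), which retains SCAP in the endoplasmic reticulum, was at 93.9, 91.6 and 87.9 CPM in untreated WT and at 182, 205 and 186 CPM at 4 h of Jurkat cells (log2 fold change 1.07, SE 0.0553, edgeR FDR 8.24e-17). In KO it went from 112, 101 and 98.3 CPM to 193, 174 and 193 CPM (0.85, SE 0.0548, edgeR FDR 1.98e-14). Its paralog Insig2 changed in the opposite direction, by -0.45 and -0.36, and Scap by -0.41 and -0.38.

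Srebf1 (chr11:60199084-60220627) was at 125, 133 and 142 CPM in untreated WT and at 99.7, 100.3 and 98.6 CPM at 4 h, a log2 fold change of -0.42 (SE 0.0473, edgeR FDR 3.44e-09). KO values were 147, 155 and 156 CPM and then 118, 105 and 112 CPM (-0.45, SE 0.0469, edgeR FDR 7.11e-10), without overlap in either genotype. Srebf1 shares 112 bases with Rai1 on the other strand, which reached 150.4 CPM and changed by -0.26 and -0.24, so part of the Srebf1 count is uncertain. Srebf2 (chr15:82147269-82204960) was at 594, 617 and 652 CPM in untreated WT and at 664, 694 and 651 CPM at 4 h; the groups overlapped, and the call of 0.11 (SE 0.0427, edgeR FDR 0.0215) turned to -0.29 with scaling to total counts and was lost without the WT library 2 of 4 h Jurkat cells or the untreated WT library 1 or 2. In KO Srebf2 was at 649.6, 671 and 677 CPM and then at 685, 642 and 679.7 CPM (0.01, SE 0.0426). Neither SREBP mRNA thus rose in both genotypes or under every scaling, and cleavage of the proteins was not measured.

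Nr1h3 (chr2:91184061-91195116), the liver X receptor alpha gene, was at 11.9, 9.25 and 8.16 CPM in untreated WT and at 55.7, 63.7 and 54.2 CPM at 4 h of Jurkat cells. KO libraries went from 10.6, 7.46 and 7.71 CPM to 58.8, 47.2 and 47.2 CPM. Both log2 fold changes were 2.57 (SE 0.121 and 0.122, edgeR FDR 7.79e-18 and 1.13e-17). Nr1h2, the beta receptor, was at 0.04 in WT, not called, and 0.10 in KO, where the sign turned with scaling to total counts (-0.24) and the call was lost without 1 of 3 libraries.

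Among the sterol handling genes, Ch25h (chr19:34473784-34475135), cholesterol hydroxylase, was near the floor in untreated cells, at 0.579, 0.647 and 0.653 CPM in WT and 0.945, 0.539 and 0.581 CPM in KO. After 4 h of Jurkat cells it stood at 13.4, 17.8 and 14.6 CPM in WT and at 12.7, 14.3 and 13.5 CPM in KO. The log2 fold changes were 4.60 (SE 0.208) and 4.29 (SE 0.205), with edgeR FDRs of 3.17e-18 and 1.22e-17, the largest of any member. Mylip (chr13:45389742-45411940), a ubiquitin ligase induced by liver X receptors, went from 25.4, 25.3 and 24.7 CPM to 67.7, 68.3 and 65.2 CPM in WT, and from 30.0, 28.6 and 28.6 CPM to 68.5, 70.0 and 64.8 CPM in KO. It rose by 1.42 (SE 0.0491, edgeR FDR 4.65e-21) and 1.22 (SE 0.0482, edgeR FDR 1.25e-19). Stard4, a carrier of cholesterol between membranes, rose by 0.58 and 0.36, the latter 0.02 with total counts. Soat1, which esterifies cholesterol for storage, was not called (0.11 and -0.01).

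Of the 6 fatty acid genes 3 fell in each genotype at 4 h of Jurkat cells, and the others were not called. Scd2 (chr19:44293676-44306862), a desaturase that makes monounsaturated fatty acids, was at 448, 478 and 487 CPM in untreated WT and at 185, 201 and 171 CPM at 4 h (log2 fold change -1.34, SE 0.0556, edgeR FDR 3.53e-19). KO libraries went from 758, 761 and 702 CPM to 268, 239 and 265 CPM (-1.53, SE 0.0556, edgeR FDR 1.8e-20). Even after this fall, every KO library was above every WT library of the same time. Acaca, acetyl-CoA carboxylase, changed by -0.09 and -0.27, Elovl6, an elongase, was called only in WT (-0.10), and Acly, ATP citrate lyase, only in KO (-0.10). The WT calls of Acaca and Elovl6 and the KO call of Acly were each lost with DESeq2 size factors. Fasn, fatty acid synthase, was not called in either genotype (-0.01 and -0.07), nor was Scd1 (0.24 and -0.21).

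Calls in WT and KO coincided for 27 members at 4 h of Jurkat cells, all in the same direction, 19 higher and 8 lower. WT cells had 79.5% of all tested genes called at this time, and KO cells 78.5%. How far those whole-table calls coincide was not computed, so the 27 do not set the members apart from other genes. For 29 of the 35 members the KO response minus the WT response was negative. Its median over the 35 was -0.20, beside -0.01 over all genes. The difference between the genotypes' responses was tested directly as an interaction, KO response minus WT response. It was called for 8 members, all negative, beside 2.55% of all genes called lower in this test. The T-lineage genes moved the same way, with a median of -0.63 in this test and 2 of 19 called, both lower, and 6 of 19 were lower in KO than in WT at 4 h. In untreated cells 4 of these 19 were higher in KO and 1 was lower, a difference that this test subtracts. Of 6 macrophage or monocyte markers 1 was called in this test, also negative; the part of either in the result was not tested. The 8 members called were Fdft1 at -0.43 (SE 0.0737, edgeR FDR 0.00129), Cyp51 at -0.34, Sqle at -0.34, Msmo1 at -0.32, Dhcr7 at -0.30, Mvd at -0.29, Acat2 at -0.25 and Fdps at -0.23. At an unadjusted p under 0.05, 20 members passed, a count with no share over all genes computed, and DESeq2 called 10, all negative. All 8 encode enzymes of the mevalonate or sterol steps, 5 of the 11 squalene and sterol genes and 3 of the 7 early mevalonate genes.

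The library values behind this test show where the genotypes stood apart. Sqle (chr15:59315092-59331193) was at 110.4, 112 and 109 CPM in untreated WT and 143, 131 and 126 CPM in untreated KO, and at 245, 259 and 235 CPM against 245, 222 and 239.8 CPM at 4 h. Cyp51 (chr5:4080674-4104697) was at 154, 152 and 145 CPM against 190.2, 176 and 169 CPM untreated, and at 353, 394 and 344 CPM against 340.4, 330.0 and 351 CPM at 4 h. Msmo1 (chr8:64718145-64733578) was at 102, 95.1 and 88.1 CPM against 121, 113 and 104 CPM untreated, and at 219, 240.3 and 218 CPM against 215, 206 and 223 CPM at 4 h. In these 3 genes KO was higher than WT without overlap before treatment, and the genotypes overlapped at 4 h. Dhcr7 (chr7:143823167-143848410) was at 54.5, 58.1 and 61.2 CPM against 69.7, 67.3 and 68.3 CPM untreated, and at 49.8, 55.4 and 46.6 CPM against 50.6, 45.7 and 49.1 CPM at 4 h. Mvd (chr8:122433596-122443422) was at 43.5, 46.5 and 48.1 CPM against 56.0, 61.0 and 54.1 CPM untreated, and at 87.6, 92.3 and 86.9 CPM against 91.8, 86.9 and 90.5 CPM at 4 h. These 2 show the same order, a gap between genotypes in untreated cells and overlap at 4 h. Acat2 (chr17:12943042-12960725) was at 21.6, 24.0 and 22.5 CPM against 27.0, 28.5 and 26.8 CPM untreated, and at 33.5, 34.6 and 34.0 CPM against 35.1, 33.4 and 35.4 CPM at 4 h. Fdps (chr3:89093588-89101967) was at 113, 121 and 123 CPM against 137, 141 and 135 CPM untreated, and at 275, 299.6 and 281 CPM against 292, 269 and 288 CPM at 4 h. For all 8, untreated KO libraries were above all untreated WT libraries. The same held for 23 of the 35 members, and the share over all genes was not computed. The interaction subtracts the untreated gap between genotypes, so members with a negative value in it were more likely to show such a gap.

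The number of interaction calls was sensitive to single libraries. It was 3 (Fdft1 at -0.41, Sqle at -0.29 and Mvd at -0.27) without the KO library 2 of 4 h Jurkat cells, the library that stood apart, 3 without the WT library 2 of the same treatment, 4 without the untreated KO library 1, 5 without the untreated KO library 2 or the untreated WT library 1, and 11 without the untreated KO library 3. The direction stayed negative in each. Total counts left 5 calls, and a fit of the 4 groups concerned alone left 3. Among the 8, only Fdft1 and Sqle kept their calls both without every single library and under every other setting.

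**Figure D3:**
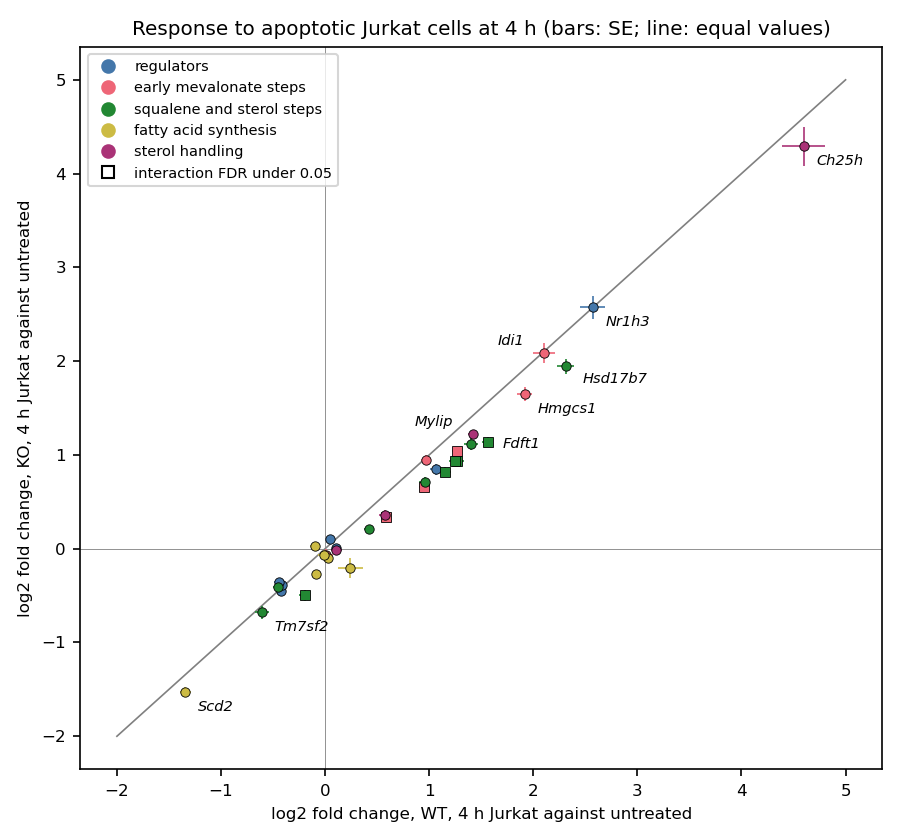
Log2 fold change after 4 h of Jurkat cells in WT (horizontal) against KO (vertical) for the 35 genes, coloured by role, with bars of 1 SE and a line of equal values; squares mark an interaction with FDR under 0.05. The 8 squares all lie below the line, and the untreated libraries of each genotype enter both the fold change and the genotype gap at the start.

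OVA moved fewer members, and mostly upward. After 4 h in WT cells 16 of the 35 genes rose and 3 fell, beside 11.9% and 11.7% of all genes. Called higher were 5 of 7 early mevalonate genes, 7 of 11 squalene and sterol genes, 2 of 7 regulators and 2 of 4 sterol handling genes; no fatty acid gene was called higher. Markers of other cells moved with 4 h of OVA too: 3 of 6 macrophage or monocyte markers were higher in WT and 1 in KO, of 4 type 2 conventional markers 1 was higher and 2 lower in each genotype, and 1 of 6 stromal markers was higher in WT and 2 in KO; their part was not tested. In KO cells 3 rose and 2 fell, beside 5.94% and 5.69% of all genes. At an unadjusted p under 0.05, 19 of the 35 passed in KO, and the share of all genes at that threshold was not computed. The number of KO calls was 9 without the untreated KO library 1 and 3 without the untreated KO library 3. It was 8 or 9 under 5 of the other settings, the replicate block within genotype (8) among them.

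Nr1h3 rose most with OVA. At 4 h it stood at 32.2, 35.7 and 29.5 CPM in WT and at 23.7, 19.2 and 21.5 CPM in KO, log2 fold changes of 1.74 (SE 0.122, edgeR FDR 9.19e-12) and 1.33 (SE 0.126, edgeR FDR 1.25e-08). The 2 sets of libraries did not overlap, and KO was lower than WT at this time by 0.59 on the log2 scale (fold change -0.59, SE 0.112, edgeR FDR 0.000443), the lowest KO against WT value of any member. At the same time 3 of 6 macrophage or monocyte markers were lower in KO, with sums of 827 to 852 CPM in KO and 922 to 1017 CPM in WT, and their part in this difference was not tested. The difference between the responses was -0.41 with an edgeR FDR of 0.627. Ch25h was at 1.14, 1.49 and 1.22 CPM in WT at 4 h of OVA, a log2 fold change of 1.03 (SE 0.267, edgeR FDR 0.00516). In KO it was at 1.05, 1.20 and 0.999 CPM and was not called (0.65, edgeR FDR 0.125).

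The enzymes rose by less with OVA than with Jurkat cells. Hsd17b7 was at 27.5, 25.6 and 21.8 CPM in WT after 4 h of OVA, above all untreated WT libraries (log2 fold change 0.63, SE 0.0824, edgeR FDR 1.09e-06). Its KO libraries, at 21.1, 22.8 and 26.2 CPM, overlapped the untreated ones (0.24, edgeR FDR 0.0582). Msmo1 was at 142, 132 and 123 CPM in WT and at 128, 134 and 141 CPM in KO, and rose in both (0.48, edgeR FDR 6.19e-07, and 0.25, edgeR FDR 0.0045). The KO call of Msmo1 was lost (edgeR FDR 0.0511) without the untreated KO library 3. Hmgcs1 was at 263, 241 and 225 CPM in WT and at 231, 241 and 254 CPM in KO, log2 fold changes of 0.45 and 0.24. The KO call of Hmgcs1 was lost without the KO library 2 or 3 of 4 h OVA or the untreated KO library 2 or 3. WT and KO libraries of these 3 enzymes overlapped after 4 h of OVA, whereas in untreated cells those of Msmo1 and Hsd17b7 did not.

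Idi1, at 26.6, 24.9 and 22.5 CPM in WT after 4 h of OVA, rose by 0.38 (SE 0.109, edgeR FDR 0.0104), a call lost without the WT library 1 of 4 h OVA or the untreated WT library 2 or 3 (edgeR FDR up to 0.0643). Fdft1, at 60.0, 58.7 and 55.8 CPM, rose by 0.37 (SE 0.0532, edgeR FDR 4.58e-06). Cyp51, at 207, 198 and 175 CPM, rose by 0.36 (SE 0.0604, edgeR FDR 5.06e-05). In KO cells at the same time Idi1 was at 21.7, 22.8 and 24.4 CPM, Fdft1 at 56.4, 57.7 and 60.2 CPM and Cyp51 at 182, 184 and 202 CPM, and none of the 3 was called. Genes that fell in WT were Acaca (-0.28), Scd2 (-0.15) and Scap (-0.15), and Acaca (-0.30) and Scd2 (-0.27) fell in KO as well. The WT call of Scap was lost without the untreated WT library 3 or the WT library 1 of 4 h OVA, and that of Scd2 without the untreated WT library 2 or 3 or the WT library 2 or 3 of 4 h OVA.

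At 30 min of OVA, 10 members were called in WT, all higher, beside 5.51% of all genes called higher and 5.15% called lower. Insig1 was at 138, 144 and 127 CPM (log2 fold change 0.58 against untreated, SE 0.055, edgeR FDR 2.56e-08), and then stood at 117, 114 and 107 CPM at 4 h. Hsd17b7 was at 24.7, 26.3 and 22.7 CPM (0.61, SE 0.0824) and Hmgcs1 at 250.4, 271 and 236 CPM (0.50, SE 0.071), both above all untreated WT libraries. The others were Nr1h3, Sc5d, Msmo1, Lss, Mylip, Stard4 and Sqle, with log2 fold changes from 0.41 down to 0.16. Of these, Nr1h3 and Sqle, the highest and the lowest, were each lost without any 1 of 5 libraries. In KO cells only Insig1 was called, at 129, 121 and 133 CPM (0.29, SE 0.0557, edgeR FDR 0.00221), beside 3.77% of all genes called and 1.88% called higher. An unadjusted p under 0.05 was reached by 10 members, and the share of all genes at that threshold was not computed. The number of KO calls was 3 without the KO library 1 of 30 min OVA and 2 without the untreated KO library 3.

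The smaller number of OVA calls in KO was not matched by a called difference between responses. No interaction with OVA was called by edgeR for any member at 30 min or at 4 h, where 0% and 0.0405% of all genes were called, and DESeq2 called 0 at both times. At an unadjusted p under 0.05, 12 members passed at 30 min and 11 at 4 h. The share of all genes at that threshold was not computed. The point estimates were negative for 30 of the 35 members at each time, with medians of -0.09 and -0.12, beside -0.0009 and -0.0018 over all genes. Among the largest were Hsd17b7 at -0.42 (SE 0.119, edgeR FDR 0.823) at 30 min and -0.40 (SE 0.116, edgeR FDR 0.354) at 4 h. Neither passed the adjustment over all genes, which does not measure the size of a difference against the spread between libraries.

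At 30 min of Jurkat cells the members moved little. In WT 3 rose and 7 fell, beside 14.2% and 14.5% of all genes, and in KO 4 rose and 6 fell, beside 8.72% and 8.26%. Insig1, Hsd17b7 and Mylip rose in both genotypes, by 0.30, 0.51 and 0.27 in WT and 0.20, 0.37 and 0.23 in KO. Hsd17b7 libraries were at 22.3, 23.2 and 23.2 CPM in WT and at 26.8, 24.8 and 25.1 CPM in KO, above all untreated libraries of their genotype. Members lower in both genotypes were Pmvk, Mvd, Acaca, Fasn and Scd2, between -0.12 and -0.25. Calls that held without any single library were Insig1, Hsd17b7, Mylip, Acat2 and Acaca in WT and Hsd17b7, Mylip, Mvd and Scd2 in KO. Ch25h was called in KO (0.85, SE 0.263, edgeR FDR 0.0253), where library 1 stood at 1.93 CPM and the others at 0.795 and 0.999 CPM. That call was lost without library 1 (0.38) and without the untreated KO library 2 or 3. The WT count was 5 without the WT library 1 of 30 min Jurkat cells and 6 without the untreated WT library 2 or 3. The KO count was 4 without the untreated KO library 2, 5 without the KO library 2 of 30 min Jurkat cells and 6 without the untreated KO library 3. Interactions at this time were called for 0 members by edgeR and by DESeq2, beside 0.00675% of all genes called by edgeR. At an unadjusted p under 0.05, 0 members passed.

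Jurkat cells and OVA were compared directly at matched times. At 30 min in WT 12 members were called, all lower with Jurkat cells than with OVA, beside 12.3% of all genes called lower. Hmgcs1, at 176, 172 and 171 CPM with Jurkat cells, differed most from its OVA libraries (-0.54, SE 0.0711, edgeR FDR 1.82e-06), with Lss (-0.35), Acat2 (-0.34) and Insig1 (-0.29) next. In KO Ch25h was higher (1.03) and Hmgcs1 (-0.22) and Lss (-0.23) were lower, beside 5.30% and 4.92% of all genes. The Ch25h call was lost without any of 4 libraries, 1 call remained without the KO library 2 of 30 min Jurkat cells, and no call was left in edgeR without the KO library 3 of 30 min OVA, although DESeq2 called 5 members with all libraries and 12 had an unadjusted p under 0.05. The share of all genes at that unadjusted threshold was not computed. At 4 h the order was reversed: in WT 24 members were higher with Jurkat cells and 8 lower, beside 37.2% and 40.3% of all genes (77.5% in all), and in KO 22 were higher and 7 lower, beside 36.3% and 40.1% (76.4% in all). With total counts these became 16 higher and 15 lower in WT and 16 higher and 17 lower in KO. Hmgcs1 then differed by 1.47 in WT and 1.41 in KO, Hsd17b7 by 1.68 and 1.71, Ch25h by 3.57 and 3.64 and Nr1h3 by 0.83 and 1.25.

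KO cells held more mRNA than WT cells for most members before any treatment. In untreated cells 22 of the 35 genes were called, all higher in KO, beside 6.00% of all genes called higher and 3.97% called lower, 9.97% in all. The median log2 fold change was 0.21, beside -0.01 over all genes, and 31 of 35 values were positive. Members called were 9 of 11 squalene and sterol genes, 4 of 7 early mevalonate genes, 4 of 6 fatty acid genes, 3 of 4 sterol handling genes and 2 of 7 regulators. The members together held 0.465% to 0.485% of all counts in untreated KO libraries and 0.395% to 0.408% in untreated WT libraries. Without the untreated KO library 1 the count was 13, all still higher.

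Markers of other cell types moved with genotype too. All 5 basophil or mast cell genes were higher in KO in every condition, with summed levels of 28.7 to 44.4 CPM in untreated KO and 10.5 to 13.2 CPM in untreated WT. Of 6 stromal genes, 4 or 5 were higher in KO in each condition, with sums of 686 to 862 CPM in untreated KO and 537 to 617 CPM in untreated WT. Of 5 plasmacytoid dendritic cell genes 2 to 4 were lower in KO, with sums of 1847 to 1972 CPM in untreated KO and 2107 to 2158 CPM in untreated WT. Of 6 macrophage or monocyte markers 1 to 3 were lower in KO in each condition, with sums of 618 to 770.4 CPM in untreated KO and 735 to 776 CPM in untreated WT. Of 5 type 1 conventional dendritic cell genes 1 to 3 were lower in KO in each condition and 0 higher. Their sums were 2391 to 2459 CPM in untreated KO and 2510 to 2629 CPM in untreated WT. Of 4 type 2 conventional genes 0 to 2 were higher and 0 to 1 lower. No gene of these lists was at 0 in all libraries of a group, and their part in the members' differences was not tested. The T-lineage list also differed between genotypes where no Jurkat cells were added. Of its 19 tested genes 4 were higher and 1 lower in KO in untreated cells and at 30 min of OVA. At 4 h of OVA 4 were higher and 0 lower, and the part of this list was not tested either.

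The desaturases Scd1 and Scd2 were the members called between the genotypes in all 5 conditions, and Scd1 had the highest fold change in each. Scd1 (chr19:44394450-44407709) was at 4.94, 4.33 and 4.69 CPM in untreated WT and at 11.7, 10.7 and 9.70 CPM in untreated KO, a log2 fold change of 1.20 (SE 0.11, edgeR FDR 1.17e-08). With OVA at 30 min it was at 4.84, 4.43 and 4.73 CPM in WT and 9.78, 12.5 and 12.7 CPM in KO (1.30, SE 0.114, edgeR FDR 5.9e-09), and at 4 h at 4.83, 3.91 and 5.33 CPM against 9.26, 9.67 and 10.3 CPM (1.05, SE 0.111). With Jurkat cells it was at 4.64, 3.52 and 4.81 CPM against 8.75, 9.73 and 9.16 CPM at 30 min (1.09, SE 0.112), and at 5.67, 5.20 and 5.65 CPM against 8.96, 10.2 and 8.58 CPM at 4 h (0.75, SE 0.116). Every KO library of a condition was above every WT library of it in all 5 conditions.

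Scd2 showed the same order. It was at 448, 478 and 487 CPM in untreated WT and at 758, 761 and 702 CPM in untreated KO (0.65, SE 0.0544, edgeR FDR 1.43e-09). With OVA it was at 482, 494 and 456 CPM against 691, 651 and 618 CPM at 30 min (0.45), and at 445, 419 and 411 CPM against 593, 614 and 634 CPM at 4 h (0.53). At 30 min of Jurkat cells it was at 422, 399.8 and 437 CPM against 622, 619 and 623 CPM (0.57), and at 4 h it was higher in KO by 0.47 (SE 0.0551, edgeR FDR 8.51e-07). Scd1 and Scd2 are close paralogs that lie near each other on chromosome 19, and how reads matching both were counted is not given in the sources used here, so each count is uncertain. The calls of both genes in all 5 conditions held under every setting and without any single library.

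**Figure D4:**
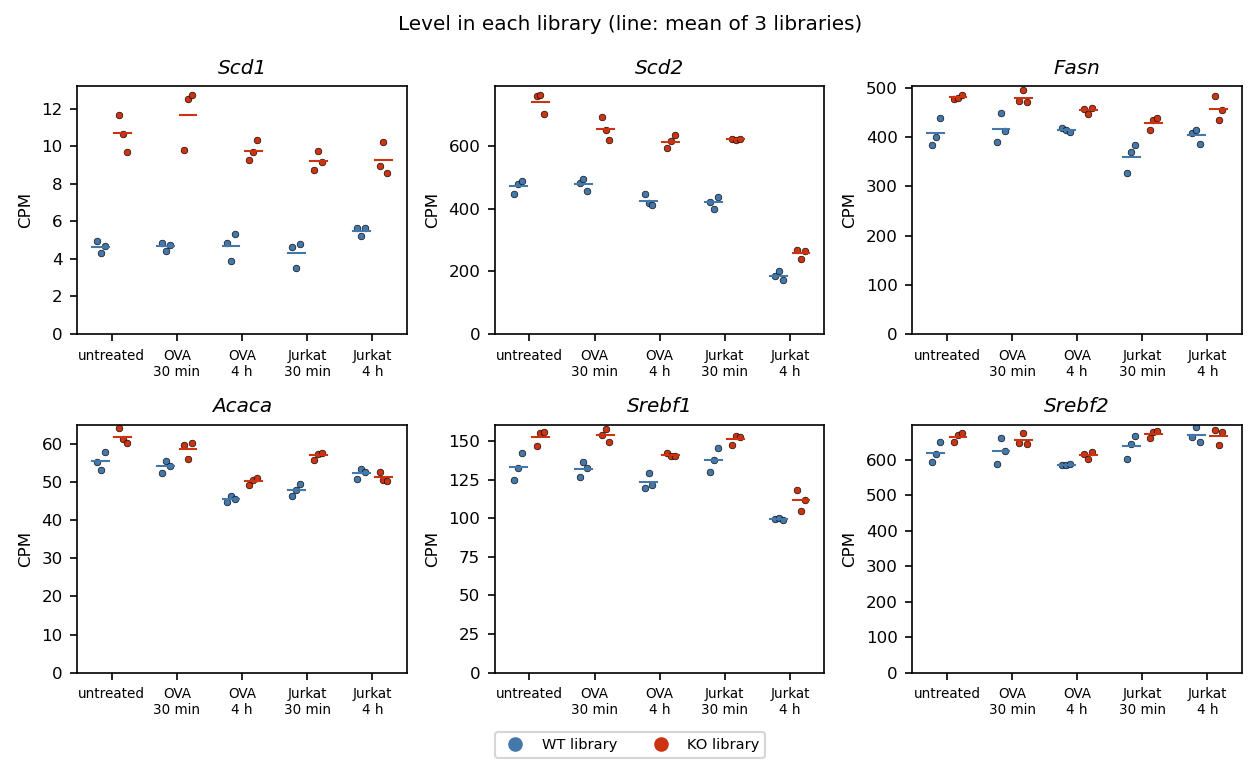
CPM (vertical axis, from 0) in each library for 4 fatty acid genes and the 2 SREBP genes across the 5 conditions, WT in blue and KO in red, with a line at the mean of 3 libraries. KO libraries lie above WT libraries in all 5 conditions for Scd1, Scd2, Fasn and Srebf1, and Scd2 falls to 171 to 201 CPM in WT and 239 to 268 CPM in KO after 4 h of Jurkat cells.

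Fasn was at 384, 400.2 and 438 CPM in untreated WT and at 478, 479 and 486 CPM in untreated KO (0.24, SE 0.0535, edgeR FDR 0.00318), and was called higher in 4 of 5 conditions, all but 4 h of OVA. The Fasn call was lost at 30 min of OVA without the KO library 2 or the WT library 1, and at 4 h of Jurkat cells without the KO library 1 or the WT library 3. Srebf1 was called higher in 4 conditions, all but 30 min of Jurkat cells, by 0.16 to 0.22 on the log2 scale, with the libraries of the 2 genotypes apart in all 5. Its call in untreated cells was lost without the untreated WT library 1 (edgeR FDR 0.0559) and that at 4 h of Jurkat cells without the KO library 1 (edgeR FDR 0.102). Fdps and Nsdhl were also called in 4 conditions, all but 4 h of Jurkat cells, by 0.13 to 0.23, but their OVA calls were each lost without at least 1 library. Acaca, Dhcr7, Mylip and Soat1 were called in 3 conditions each. Soat1 was higher in KO without overlap in all 5 conditions, by 0.09 to 0.21. Srebf2 was not called in any condition (-0.002 to 0.10).

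Among the sterol enzymes the untreated differences were modest. Lss was at 48.0, 48.8 and 48.4 CPM in WT and at 62.2, 61.8 and 58.0 CPM in KO (0.33, SE 0.0565, edgeR FDR 0.000233). Mvd was higher by 0.31 (edgeR FDR 6.5e-05), Hsd17b7 by 0.30 (edgeR FDR 0.0176), Acat2 by 0.27 and Sqle by 0.27. Their untreated libraries, given above, did not overlap between the genotypes, though the Hsd17b7 call was lost without the untreated KO library 1 or 2 or the untreated WT library 2 or 3 (edgeR FDR up to 0.122). Acat2 had its largest difference at 30 min of Jurkat cells, at 20.7, 19.6 and 19.2 CPM in WT and 25.6, 24.8 and 25.2 CPM in KO (0.35, SE 0.0517, edgeR FDR 5.38e-05). Insig1, at 93.9, 91.6 and 87.9 CPM in WT and 112, 101 and 98.3 CPM in KO, was called only in untreated cells (0.19, SE 0.0551, edgeR FDR 0.025), and this call was lost without the untreated KO library 1 (edgeR FDR 0.211) or the untreated WT library 2 or 3. Ch25h was not called between genotypes in any condition.

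The number of members called higher in KO differed between conditions. By the interactions given above, a change of the genotype difference from that in untreated cells was called only at 4 h of Jurkat cells. At 30 min of Jurkat cells 16 members were called, all higher, beside 5.58% of all genes called higher and 3.67% called lower. At 30 min of OVA 7 members were called, all higher, beside 6.25% of all genes called higher and 6.13% called lower. At 4 h of OVA 11 were higher and Nr1h3 was lower, beside 6.22% and 6.35%. At 4 h of Jurkat cells 5 were higher, Scd1, Scd2, Fasn, Elovl6 and Srebf1, and Fdft1 was lower (-0.20, SE 0.0509, edgeR FDR 0.00504), beside 9.37% and 13.5%, 22.9% in all. Scaling to total counts gave 12 higher at 30 min of OVA, 16 higher and 1 lower at 4 h of OVA, and 11 calls, all higher, at 4 h of Jurkat cells, where Fdft1 was no longer called (-0.12). The Elovl6 call was lost without any of 4 libraries. The counts were also 4 without the KO library 1, the WT library 1 or the WT library 2 at 30 min of OVA, 7 without the KO library 1 or the WT library 1 at 4 h of OVA, and 3 without the KO library 1 at 4 h of Jurkat cells.

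**Figure D5:**
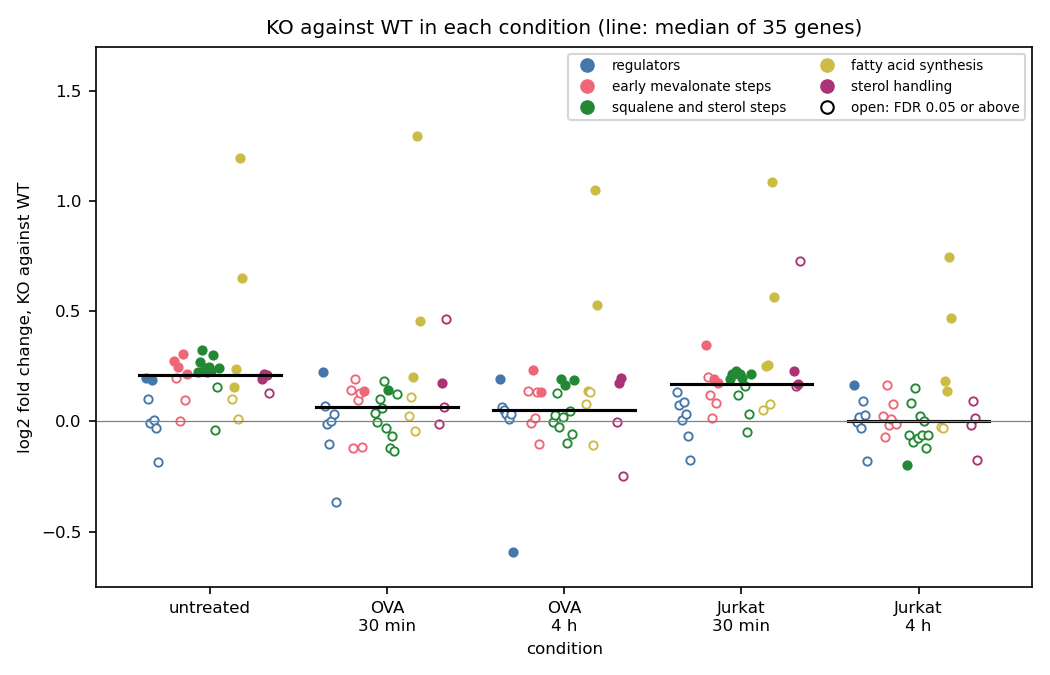
Log2 fold change of KO against WT (vertical) for the 35 genes in each of the 5 conditions, coloured by role, filled where FDR is under 0.05, with a line at the median. The median is 0.21 in untreated cells and 0.17 at 30 min of Jurkat cells, and lies between 0.00 and 0.07 in the other conditions, while Scd1 stays the highest point throughout.

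Over the 5 conditions, 2 members were called higher in KO in all 5, 4 in 4, 4 in 3, 10 in 2, 3 in 1 and 12 in none. In single conditions 5.58% to 9.37% of all genes were called higher in KO, and the same tally over all genes was not computed. The 12 were Hmgcs1, Pmvk, Idi1, Ebp, Sc5d, Insig2, Scap, Srebf2, Acly, Nr1h2, Nr1h3 and Ch25h. Of them, 7 were called higher in WT at 4 h of Jurkat cells, beside 38.9% of all genes. Among these 7 were Hmgcs1 and Idi1, whose untreated libraries, given above, overlapped between WT and KO.

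A further 25 genes of the same pathways, none of them a member, were read for comparison. After 4 h of Jurkat cells 11 rose and 10 fell in WT, beside 38.9% and 40.6% of all genes. In KO 11 rose and 11 fell, beside 37.5% and 41.0%. The medians were 0.02 in WT and -0.01 in KO. The difference between the genotypes' responses was negative for 20 of the 25. It was called for 3, all negative, among them the lysosomal sterol carrier Npc2 at -0.19, beside 2.55% of all genes called lower. The largest falls in WT were in Cyp27a1, a sterol hydroxylase (-2.28), Lpin1, a phosphatidate phosphatase (-1.76), Fads1, a fatty acid desaturase (-1.75), and Lbr, a receptor of the nuclear envelope with sterol reductase activity (-1.29). The cholesterol exporters Abca1 and Abcg1 rose by 0.86 and 0.68 in WT and by 0.82 and 0.41 in KO. In untreated cells 12 of the 25 were higher in KO and 1 was lower, beside 6.00% and 3.97% of all genes. Abcg1 (0.23) was among the higher.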

How the data were processed

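Gene-level read counts of 30 bulk RNA libraries were analysed, as deposited by the authors in 1 table per the file headers. The submitters' processing notes name STAR 2.5, Subread, featureCounts 1.5.0-p1, DESeq2 and mm10; the annotation, use of strand and handling of multi-mapping and human reads are not stated in the sources available here. Per the labels' protocols the kit was TruSeq RNA v2, which does not mark strand. Counts were scaled by TMM and fitted with edgeR 4.0.16 (R 4.3.3, limma 3.58.1) using 1 mean per group over all 30 libraries, and 21 contrasts were tested by quasi-likelihood with Benjamini-Hochberg adjustment (FDR under 0.05) over the 14808 of 25611 genes kept by filterByExpr. CPM are scaled by the TMM factors. Alternatives were DESeq2 1.42.0 and its size factors, total counts, other filters, a replicate block, only the groups compared, and each library left out. On simulated 4 h Jurkat against untreated WT counts of 13982 genes, 76% of 50 genes changed 1.25-fold were called, and 100% of 50 changed 1.5-fold. Of the calls, 3.59% were unchanged genes. The simulation changed only 200 genes, equally up and down, with the same spread for every gene. In the real comparison 79.5% of all genes were called, so these rates do not carry over to it. The 35 genes, the 25 related genes and the marker lists were chosen with earlier results of these data known, and genes were named by role and by size of change among those called, with members singled out for losing a call added after their values were seen. Some of the related genes are not reported here.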

Additional observations from a re-analysis of the deposited data

Results flagged for a closer look

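The response to 4 h of Jurkat cells differed between KO and WT, by the test of the difference itself, for 8 members, each with a lower log2 fold change in KO. The differences (KO response minus WT response) were -0.43 for Fdft1, -0.34 for Cyp51, -0.34 for Sqle, -0.32 for Msmo1, -0.30 for Dhcr7, -0.29 for Mvd, -0.25 for Acat2 and -0.23 for Fdps. Over all genes, 1.72% were called higher and 2.55% lower in this test. The untreated libraries of each genotype enter both the response and the KO against WT difference in untreated cells, so the values of the 2 comparisons are not independent.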

How the results depend on the processing

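With scaling to total counts the sign of 17 called values turned: at 4 h of Jurkat cells against untreated, Srebf2 in WT (-0.29) and Nsdhl (-0.13), Acat2 (-0.0036) and Nr1h2 (-0.24) in KO; against 4 h of OVA, in WT Acat2 (-0.060), Srebf2 (-0.20), Stard4 (-0.038), Acaca (-0.19), Acly (-0.30), Nr1h2 (-0.29) and Soat1 (-0.17), and in KO Nsdhl (-0.054), Acat2 (-0.13), Srebf2 (-0.22), Stard4 (-0.0083), Nr1h2 (-0.25) and Soat1 (-0.21). The median of all genes moved under that scaling to -0.42 in WT and -0.37 in KO. Total counts also gave 2 members called for 30 min OVA in KO, 8 for 4 h OVA in KO, 12 and 11 for KO against WT at 30 min OVA and 4 h Jurkat cells, and 5 for the 4 h Jurkat interaction. The filter of 5 CPM in 3 libraries gave 2, 9 and 12 for 30 min OVA in KO, 4 h OVA in KO and KO against WT at 30 min OVA, and no filter gave 2 for 30 min OVA in KO. DESeq2 gave 2 and 8 for 30 min and 4 h OVA in KO and 5 for Jurkat against OVA at 30 min in KO. Fitting only the groups compared gave 6 for 30 min Jurkat cells in each genotype, 8 for 4 h OVA in KO, 1 for Jurkat against OVA at 30 min in KO and 3 for the interaction. Same-numbered libraries of a genotype had a median correlation of deviations of 0.0148 over 60 pairs, 6 of them over 0.1. Differently numbered libraries of a genotype had a median of -0.0064 over 120 pairs, 2 of them over 0.1. These values do not settle whether replicate numbers pair the libraries. A replicate block within genotype gave 8 for 4 h OVA in KO, 5 for Jurkat against OVA at 30 min in KO and 12 for the interaction, and left the other counts within 1.5 times. Leaving out each library gave 5 to 10 members for 30 min Jurkat cells in WT, 1 to 3 for 30 min OVA, 3 to 9 for 4 h OVA and 4 to 8 for 30 min Jurkat cells in KO, 0 to 2 for Jurkat against OVA at 30 min in KO, and for KO against WT 13 to 22 untreated, 4 to 6 at 30 min OVA, 7 to 11 at 4 h OVA and 3 to 6 at 4 h Jurkat cells; the interaction gave 3 to 11. Of 260 called values, 170 kept direction and call under every setting and without every single library, and no sign turned without a library. The causes were not tested.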
